A study of Mus musculus with 8 samples.

Results

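The macrophage genes Csf1r, Adgre1, Cd68, Lyz2, C1qa, C1qb, C1qc, Mrc1, Cd163 and Arg1 were followed across 4 mouse models of endometrial cancer (EC). They were taken by their symbols, are 10 of the 24419 gene symbols of the count table, and all 10 were among the 15875 genes that passed the filter on low counts. The lowest count of any of them in a library was 81, for Cd163. RNA from 2 libraries of each of the TPM, TPMCa, TPMR1 and TPK models, 8 in all, had been sequenced in bulk. In all 4 models uterus organoids of CAG-Cas9-EGFP mice received edits that include an sgRNA against Trp53 and were injected into the left uterus of female BALB/cA-nu mice, 8 weeks old. TPM organoids also overexpressed Myc, TPMCa added Pik3ca E545K cDNA to TPM, TPMR1 added an sgRNA against Pik3r1 to TPM, and TPK had no Myc construct. The labels call the material tumor organoids of nude mice, whereas in the study's methods RNA came from tumors removed some 2 months after injection. Nude mice lack a thymus and mature T cells and keep their own macrophages. A bulk library cannot assign a transcript to host or graft.

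Macrophages are phagocytes that clear dead cells, present antigen and remodel tissue. Their survival and differentiation depend on the receptor CSF1R, which binds CSF1 and IL34, and on the transcription factor PU.1, which Spi1 encodes. Macrophages in culture are often described between a classically activated state, M1, in which Nos2 makes nitric oxide from arginine, and an alternatively activated state, M2, in which Arg1 turns arginine into ornithine and urea and the receptors Mrc1 and Cd163 are high. Macrophages of solid tumors commonly carry features of both states, and tissue macrophages are a main source of complement C1q.

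Total counts lay between 15748396 and 26943611 per library, and a floor of 3 counts equaled 0.116 to 0.198 CPM, which covers counting error only. CPM here are counts scaled to the library size, itself scaled by TMM (trimmed mean of M-values). The labeled tumor type was checked against 6 epithelial markers (Epcam, Cdh1, Krt7, Krt8, Krt18, Krt19), whose summed level was 2941 to 5498 CPM in TPM and TPK but 6.47 to 73.3 CPM in TPMCa and TPMR1. These markers thus went against the label of an epithelial tumor in the 4 libraries labeled TPMCa and TPMR1. The study typed these tumors on stained sections and reported well-differentiated glands, with no keratin pearls, in both models. The names TPMCa and TPMR1 stand below for the libraries so labeled. Of 9 squamous markers, 5 (Krt5, Krt6a, Krt17, Krt1, Sprr1b) had 0 counts in both TPMR1 libraries and 2 (Krt1, Sprr1b) in both TPMCa libraries. The 10 macrophage genes, 12 leukocyte and myeloid genes and the fibroblast markers had the same ends of their range. Their summed levels were highest in TPMCa replicate 2 and lowest in TPMR1 replicate 1. For comparisons that include TPMCa or TPMR1, estimates of some of the 10 genes or their median are also given without 1 or both of these libraries.

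All 10 genes were well above the floor in every library, so macrophage transcripts were detected in each of the 8 libraries. The 3 genes of C1q, Lyz2 and Cd68 were highest in TPMCa replicate 2, as were Csf1r, Adgre1, Mrc1 and Cd163, so that this library held the maximum of 9 of the 10 genes. Arg1 was highest in TPM replicate 1. The minimum lay in TPMR1 replicate 1 for 6 genes and in TPM replicate 2 for the other 4, Mrc1 and the C1q genes. By the mean of its 2 libraries TPMCa ranked first for 9 genes and TPK second, while TPK ranked first for Arg1. TPMR1 ranked last for 6 genes and TPM for 4. In bulk tumor RNA a lower level can come from fewer macrophages or from less RNA per macrophage, and these cannot be told apart.

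**Figure D1:**
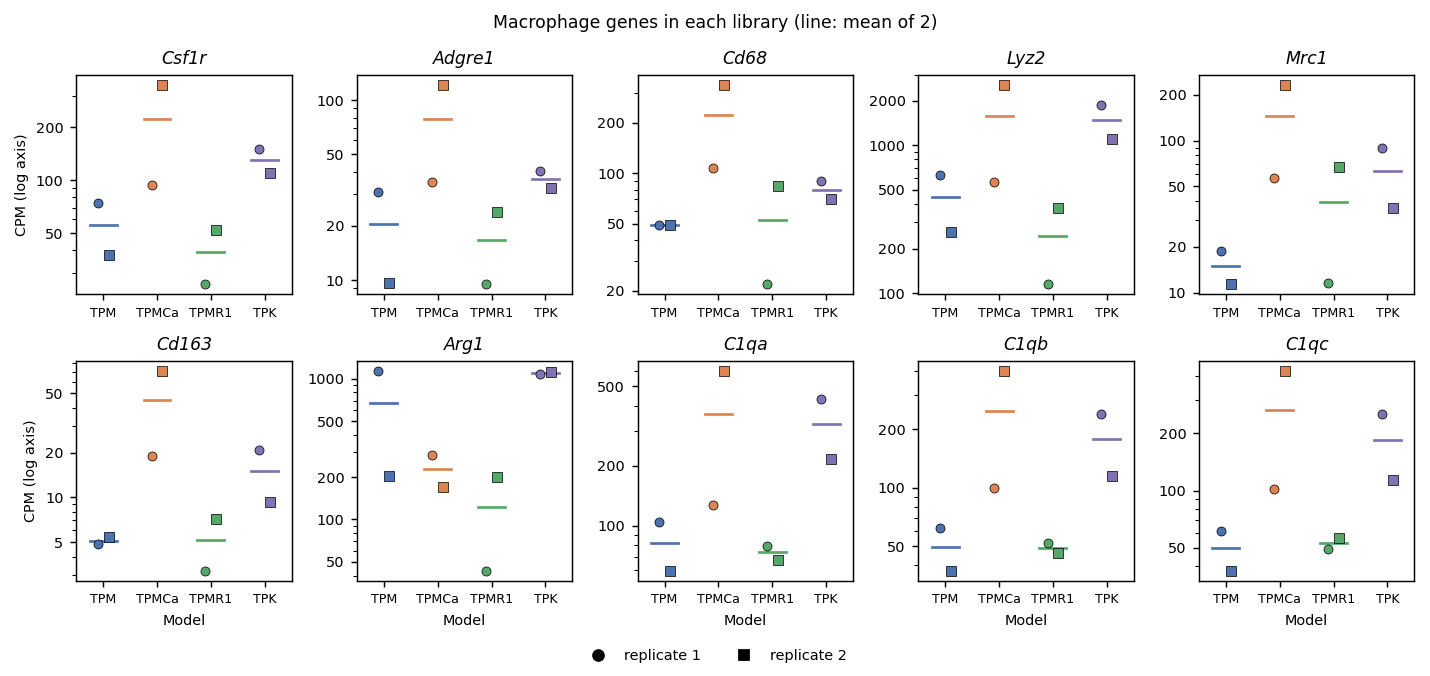
Each panel plots one gene, with the model on the x axis and CPM on a log y axis, a circle for replicate 1, a square for replicate 2 and a line for the mean of the 2 libraries. TPMCa replicate 2 is the highest point in every panel except that of Arg1, where both TPK libraries and TPM replicate 1 lie between 1081 and 1137 CPM and the other 5 libraries between 43.2 and 286 CPM.

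Levels can be compared between genes only per length of transcript. Per kilobase of exon in the annotation, the mean over the 8 libraries was highest for Lyz2 at 710 CPM per kb, followed by Arg1 at 238, C1qa at 202, C1qb at 121, Cd68 at 80.6 and C1qc at 71.3 CPM per kb. Csf1r stood at 19.3, Adgre1 at 11.7, Mrc1 at 10.3 and Cd163 at 3.22 CPM per kb. Arg1 did not keep its rank in every model, since at 102 CPM per kb in TPMCa it lay below C1qa, C1qb, Cd68 and C1qc, and by the median over all libraries C1qa and Arg1 stood at 111 and 110.2 CPM per kb. In each model the genes of secreted proteins, of arginase and of lysosomal Cd68 ranked above those of the 4 surface receptors on this scale.

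Csf1r encodes the receptor for CSF1 and IL34 and Adgre1 encodes the adhesion receptor F4/80, the antigen by which mouse macrophages are usually stained. Csf1r was at 74.5 and 37.5 CPM in the TPM libraries, 93.9 and 348 CPM in TPMCa, 25.7 and 52.4 CPM in TPMR1 and 150.7 and 110 CPM in TPK. Both TPK libraries and both TPMCa libraries lay above all 4 libraries of TPM and TPMR1, which overlapped each other. Adgre1 was at 31.1 and 9.67 CPM in TPM, 35.1 and 122 CPM in TPMCa, 9.45 and 24.0 CPM in TPMR1 and 40.3 and 32.3 CPM in TPK. The lowest TPMCa and TPK values of Adgre1, 35.1 and 32.3 CPM, were close to the highest TPM value of 31.1 CPM. For both receptors the ends of the range were TPMCa replicate 2 and TPMR1 replicate 1, which differed 13.6-fold for Csf1r and 12.9-fold for Adgre1.

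Cd68 encodes a heavily glycosylated protein of late endosomes and lysosomes, and Lyz2 encodes lysozyme M, which breaks bacterial cell walls and is made by neutrophils as well as macrophages. Cd68 was at 48.9 and 49.4 CPM in TPM, 107.9 and 338 CPM in TPMCa, 21.8 and 84.1 CPM in TPMR1 and 90.2 and 69.9 CPM in TPK. It was the one gene whose TPMCa libraries lay above both TPK libraries, and the 2 TPM values were nearly equal. Lyz2 was at 625 and 260 CPM in TPM, 562 and 2570 CPM in TPMCa, 114 and 376 CPM in TPMR1 and 1864 and 1107 CPM in TPK. The TPM and TPMCa libraries overlapped for Lyz2, whereas both TPK libraries lay above both TPM and both TPMR1 libraries. The range over the 8 libraries was 15.5-fold for Cd68 and 22.5-fold for Lyz2.

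C1qa, C1qb and C1qc encode the A, B and C chains of C1q, the recognition molecule of the classical complement pathway, and all 3 chains are needed for its assembly. The genes lie side by side on the minus strand of chromosome 4 (GRCm38, chr4:136880129-136898803), in the order C1qb, C1qc, C1qa, within 18675 bases. C1qa was at 103.8 and 59.4 CPM in TPM, 127 and 598 CPM in TPMCa, 79.2 and 67.5 CPM in TPMR1 and 432 and 215 CPM in TPK. C1qb was at 61.9 and 37.3 CPM in TPM, 99.2 and 402 CPM in TPMCa, 51.8 and 46.0 CPM in TPMR1 and 240 and 115 CPM in TPK. C1qc was at 61.5 and 37.8 CPM in TPM, 102 and 427 CPM in TPMCa, 49.4 and 56.1 CPM in TPMR1 and 253 and 114 CPM in TPK. For each chain the 4 libraries of TPM and TPMR1 overlapped and lay below the 4 libraries of TPMCa and TPK. This was also so for Csf1r, Adgre1 and Cd163. In a single pair of these models 17.7 to 31% of all genes were so divided, and the share divided in all pairs at once was not computed. The 3 C1q genes were also the ones in which the 2 TPMR1 libraries were closest, within 0.23 on the log2 scale. Those libraries were over 1 log2 unit apart for the other 7 genes.

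The C1q transcripts kept nearly the same proportions in every library. The ratio of C1qc to C1qb lay between 0.955 and 1.22 over the 8 libraries, and that of C1qa to C1qb between 1.28 in TPMCa replicate 1 and 1.87 in TPK replicate 2. The level of C1qb itself varied 10.8-fold over the same libraries. Promoter sequence is shown for 2 of these genes because they moved together, and for Cd68 and Mrc1 as the other genes whose windows held the same core motif. The sequences are from the RefSeq table of GRCm38.p6, which matched 6 of the 10 genes by symbol. They read 5′ to 3′ toward the start site, and capitals mark GAGGAA or its reverse complement TTCCTC, a core to which PU.1 can bind, searched on both strands. Within 250 bases before the start site the core was present in 4 of the 6 windows (C1qb, C1qc, Cd68, Mrc1) and not in those of Lyz2 and Cd163, beside 23.3% of 32851 windows of all genes. A match is a description of these letters and not a binding site, and the other 4 genes were not searched. The windows are C1qb at chr4:136886201-136886450 on the minus strand, C1qc at chr4:136893066-136893164 on the minus strand (the 99 bases of the window outside annotated exons), Cd68 at chr11:69666171-69666420 on the minus strand and Mrc1 at chr2:14229164-14229391 on the plus strand (228 bases).
C1qb: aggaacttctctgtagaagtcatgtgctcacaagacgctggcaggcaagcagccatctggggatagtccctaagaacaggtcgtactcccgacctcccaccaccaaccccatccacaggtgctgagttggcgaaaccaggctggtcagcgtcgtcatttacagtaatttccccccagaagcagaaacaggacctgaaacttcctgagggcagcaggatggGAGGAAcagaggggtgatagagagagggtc
C1qc: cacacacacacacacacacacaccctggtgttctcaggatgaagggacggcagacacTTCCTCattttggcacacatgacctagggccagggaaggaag
Cd68: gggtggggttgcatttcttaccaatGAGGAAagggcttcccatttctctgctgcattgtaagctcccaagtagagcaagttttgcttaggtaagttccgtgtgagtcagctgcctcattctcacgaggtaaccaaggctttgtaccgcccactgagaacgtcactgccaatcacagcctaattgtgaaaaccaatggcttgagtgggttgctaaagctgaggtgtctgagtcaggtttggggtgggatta
Mrc1: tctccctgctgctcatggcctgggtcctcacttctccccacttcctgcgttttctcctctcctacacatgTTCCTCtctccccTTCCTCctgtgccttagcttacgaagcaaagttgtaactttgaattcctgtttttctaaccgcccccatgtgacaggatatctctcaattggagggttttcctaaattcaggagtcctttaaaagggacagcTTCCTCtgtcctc

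The window of Mrc1 held 3 matches and the windows of the other genes 1 each. Spi1, the gene of PU.1, was at 21.5 and 23.0 CPM in TPM, 61.2 and 101 CPM in TPMCa, 5.96 and 30.4 CPM in TPMR1 and 60.9 and 37.5 CPM in TPK. Both TPMCa and both TPK libraries were above both TPM and both TPMR1 libraries for Spi1. The same division was seen for the 3 C1q genes, Csf1r, Adgre1 and Cd163, and not for Cd68, Mrc1, Lyz2 and Arg1. It was not particular to Spi1, since 12 leukocyte and myeloid genes, which include Spi1, also divided the libraries so. Their sum was 1061 to 2241 CPM in TPMCa and TPK and 166 to 543 CPM in TPM and TPMR1. The share of all genes with this division was not computed. The part of Spi1 in the levels of the 10 genes was not tested.

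Mrc1 encodes the mannose receptor CD206 and Cd163 the scavenger receptor for haptoglobin and hemoglobin, both read as M2 markers. Mrc1 was at 18.7 and 11.3 CPM in TPM, 56.4 and 234 CPM in TPMCa, 11.5 and 67.0 CPM in TPMR1 and 90.1 and 36.1 CPM in TPK. Both TPMCa libraries and both TPK libraries were above both TPM libraries, but the TPMR1 libraries of Mrc1 spanned the range from TPM to TPMCa. Cd163 was at 4.88 and 5.38 CPM in TPM, 18.9 and 70.9 CPM in TPMCa, 3.21 and 7.17 CPM in TPMR1 and 20.8 and 9.30 CPM in TPK. For Cd163 both TPMCa and both TPK libraries were above the 4 libraries of TPM and TPMR1, as for the C1q genes. The 2 scavenger receptors did not keep a fixed proportion, since the ratio of Cd163 to Mrc1 ranged from 0.107 in TPMR1 replicate 2 to 0.475 in TPM replicate 2.

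Arg1 encodes arginase 1, the cytosolic enzyme that makes ornithine for polyamine and proline synthesis, and in tumors it is found in myeloid cells, including neutrophils, besides other cells. Arg1 was at 1137 and 205 CPM in TPM, 286 and 170 CPM in TPMCa, 43.2 and 200 CPM in TPMR1 and 1081 and 1119 CPM in TPK. Both TPK libraries lay above all libraries of TPMCa and TPMR1, and both TPM libraries lay above both TPMR1 libraries, the second by a small margin. The TPM libraries were 2.47 log2 units apart, and one lay near the TPMR1 and the other near the TPK values. TPMCa replicate 2, the highest library for the other 9 genes, ranked seventh of 8 for Arg1.

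Over all 4 models 0 of the 10 genes passed an adjusted p under 0.05 in the edgeR quasi-likelihood test of any difference among the models, which called 7.32% of all genes tested. At an unadjusted p under 0.05, 7 of the 10 passed (all but Adgre1, Lyz2 and Mrc1), beside 27.9% of all genes. The adjusted p ranged from 0.0851 for Cd163 to 0.231 for Adgre1 in edgeR. By the likelihood ratio test of DESeq2, 9 of the 10 passed (all but Adgre1), beside 29.8% of all genes. The 2 tools thus gave opposite calls for 9 genes, and p-values in both measure only the spread between 2 libraries per model. By edgeR 0 of the 10 passed without TPMCa replicate 2, without TPMR1 replicate 1 or without both.

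The study compared TPM with TPMCa and TPMR1 jointly, which sets tumors without an added change in a PI3 kinase subunit against tumors with one. Mrc1 had the lowest estimate in TPM, with a log2 fold change of −2.33 ± 0.94 (SE), and Arg1 the highest, with 2.01 ± 0.76. Estimates of the other 8 genes lay between −1.57 ± 0.69 for Cd163 and −0.48 ± 0.77 for Lyz2. None of the 10 passed the edgeR threshold (8.89% of all genes did), with adjusted p values of 0.188 for Mrc1 and 0.166 for Arg1. These 2 genes passed at an unadjusted p under 0.05 (24.9% of all genes), and Mrc1 alone passed in DESeq2 (18.4% of all genes). The median log2 fold change of the 10 genes was −1.07, and that of all genes tested −0.02. The median of the 10 was −0.37 without TPMCa replicate 2, −1.10 without TPMR1 replicate 1 and −0.48 without both. Without TPM replicate 1 the estimate of Arg1 was 0.28.

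TPK against the same mean is the other comparison of the study. Arg1 was higher in both TPK libraries than in any of the 4 TPMCa and TPMR1 libraries, and its log2 fold change of 2.72 ± 0.77 (SE) missed the edgeR threshold with an adjusted p of 0.0607. It passed in DESeq2 with an adjusted p of 0.00525, in edgeR without a filter on low counts (0.0471), in edgeR fitted to these 3 models alone (0.0498) and in edgeR without TPMR1 replicate 2 (0.027). Of the 10 genes 0 passed the edgeR threshold (14.4% of all genes), 1 passed at an unadjusted p under 0.05 (32% of all genes) and 1 passed in DESeq2 (26.6% of all genes), in both cases Arg1. The other 9 estimates lay between −0.44 ± 0.63 for Cd68 and 1.26 ± 0.73 for Lyz2, and the lowest unadjusted p among them was 0.128, for Lyz2. Without TPMCa replicate 2 all 10 estimates were above 0, from 0.08 for Cd68 to 2.56 for Arg1. Without TPMR1 replicate 1, 6 were above 0, and without both libraries 9 were, with Cd68 at −0.25.

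In TPMCa against TPM the estimates of 9 of the 10 genes were above 0 and that of Arg1 below 0, none past the edgeR threshold. Both TPMCa libraries lay above both TPM libraries for 8 genes (all but Lyz2 and Arg1), a pattern found in 29.1% of all genes tested. The estimates were 3.28 ± 1.05 (SE, log2) for Mrc1, 3.13 ± 0.80 for Cd163, 2.33 ± 0.70 for C1qb and 1.98 ± 0.70 for Csf1r, with adjusted p values of 0.139, 0.0878, 0.122 and 0.167 in edgeR. Arg1 stood at −1.56 ± 0.94, with an adjusted p of 0.366. By edgeR 0 of the 10 genes passed (3.48% of all genes), 8 passed at an unadjusted p under 0.05 (22.1%), and by DESeq2 7 passed, all higher in TPMCa (16.1%). Those 7 were Csf1r, Cd68, Mrc1, Cd163 and the 3 C1q genes. The median estimate of 2.17 fell to 0.89 without TPMCa replicate 2, when no gene had an adjusted p below 0.282.

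In TPMR1 against TPM no gene but Arg1 and Mrc1 had an estimate beyond 1 log2 unit. Estimates of 8 genes lay between −0.85 ± 0.88 (SE, log2) for Lyz2 and 0.11 ± 0.71 for Cd68, and that of Mrc1 was 1.39 ± 0.98. Arg1 had the largest difference, −2.46 ± 0.97, with an adjusted p of 0.19 in edgeR and 0.048 in DESeq2. It was the only 1 of the 10 genes with both TPM libraries above both TPMR1 libraries (28.4% of all genes), with an unadjusted p under 0.05 (23.1% of all genes) and with a call in DESeq2 (17% of all genes). By edgeR 0 of the 10 passed (5.58% of all genes). Without TPM replicate 1 the estimate of Arg1 was −0.72, and without TPMR1 replicate 1 it was −1.74, with Mrc1 at 2.16 and a median of 0.04 over the 10 genes.

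All 10 genes had estimates above 0 in TPK against TPM, from 0.70 ± 0.71 (SE, log2) for Cd68 to 2.07 ± 1.0 for Mrc1. Both TPK libraries lay above both TPM libraries for 9 genes (all but Arg1), beside 24.4% of all genes. C1qa, C1qb and C1qc had estimates of 1.99 ± 0.74, 1.84 ± 0.69 and 1.89 ± 0.71 and were the 3 genes that passed at an unadjusted p under 0.05 (7.17% of all genes). In edgeR 0 of the 10 passed, as did 0% of all genes, and each of the 3 had an adjusted p of 0.683. In DESeq2 0 of the 10 passed, beside 1.57% of all genes. Both TPK libraries also lay above both TPMR1 libraries for 8 of the 10 genes (all but Cd68 and Mrc1), beside 31% of all genes.

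TPMR1 and TPMCa both carry a change in a subunit of PI3 kinase and gave 10 estimates that were all lower in TPMR1. Cd163 stood at −3.11 ± 0.80 (SE, log2), Lyz2 at −2.68 ± 0.93, Csf1r at −2.50 ± 0.71 and the C1q genes between −2.36 ± 0.70 and −2.31 ± 0.75. Both TPMCa libraries lay above both TPMR1 libraries for 8 genes (all but Mrc1 and Arg1), beside 17.7% of all genes. In edgeR 0 of the 10 passed, as did 0% of all genes, and the lowest adjusted p was 0.364 for Cd163. At an unadjusted p under 0.05, 8 passed (11.8% of all genes), and in DESeq2 6 passed, namely Csf1r, Lyz2, Cd163 and the C1q genes (5.03% of all genes). Without TPMCa replicate 2 and TPMR1 replicate 1 the estimates ranged from −1.40 for Cd163 to 0.25 for Mrc1.

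**Figure D2:**
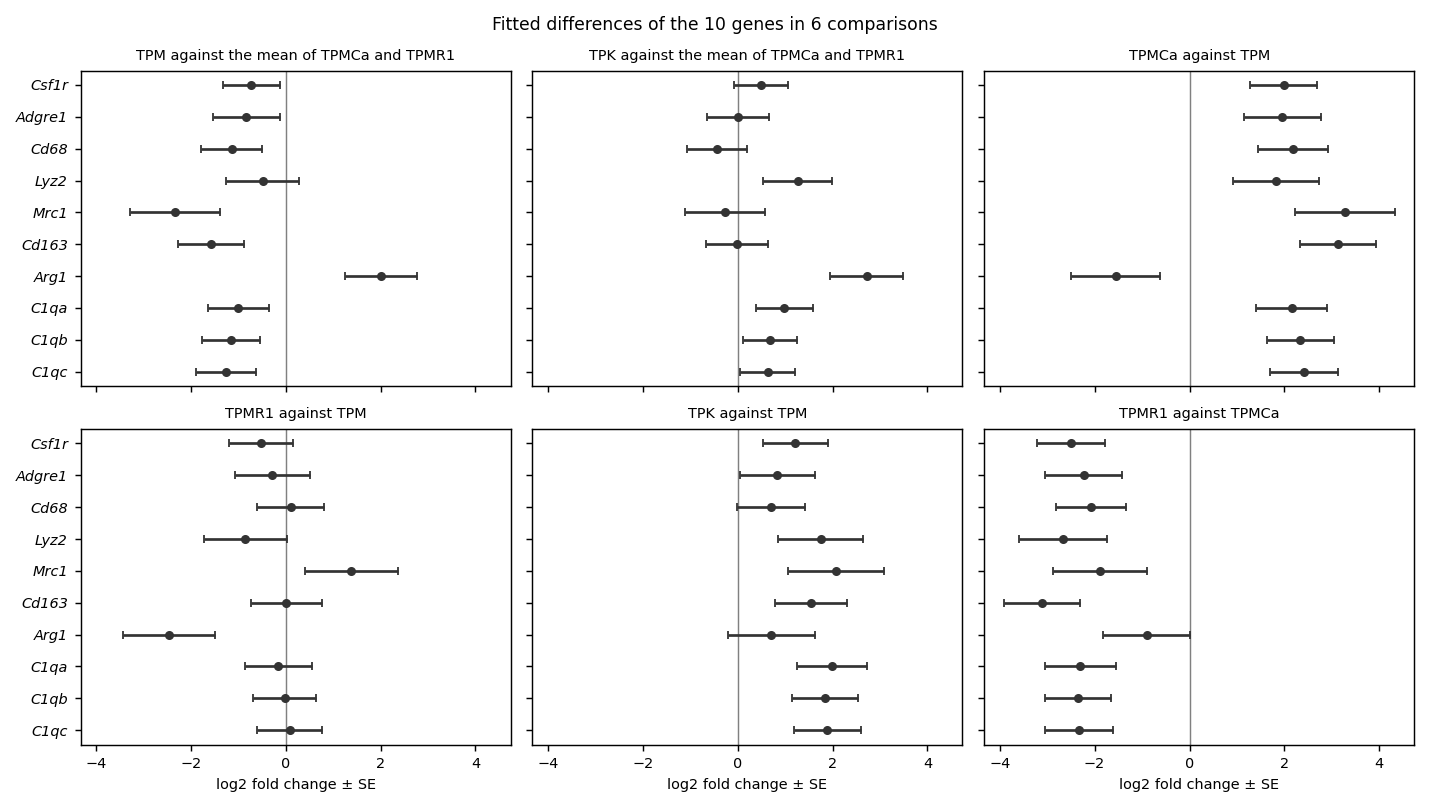
Each panel is one comparison, with the 10 genes on the y axis and the fitted log2 fold change on the x axis as a point with a bar of 1 SE. Points lie to the right in TPMCa against TPM except that of Arg1 at −1.56, and all 10 lie to the left in TPMR1 against TPMCa, from −3.11 to −0.90.

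The 2 libraries of a model often lay more than 1 log2 unit apart. In TPMCa, replicate 2 exceeded replicate 1 by a median of 1.96 log2 units over the 10 genes, and 9 of them differed by more than 1 unit, beside 24.9% of all genes tested. In TPMR1 replicate 2 was higher by a median of 1.24 log2 units, with 7 genes over 1 unit beside 37.3% of all genes. In TPM and TPK replicate 2 was the lower one, by medians of −0.77 and −0.88 log2 units, with 3 and 5 genes over 1 unit beside 17.2% and 19.3% of all genes. Arg1 did not follow the other genes here. In TPMCa it was 0.75 log2 units lower in replicate 2, and in TPM it fell by 2.47 log2 units from replicate 1 to replicate 2, against a range from −1.68 to 0.14 for the other 9 genes.

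**Figure D3:**
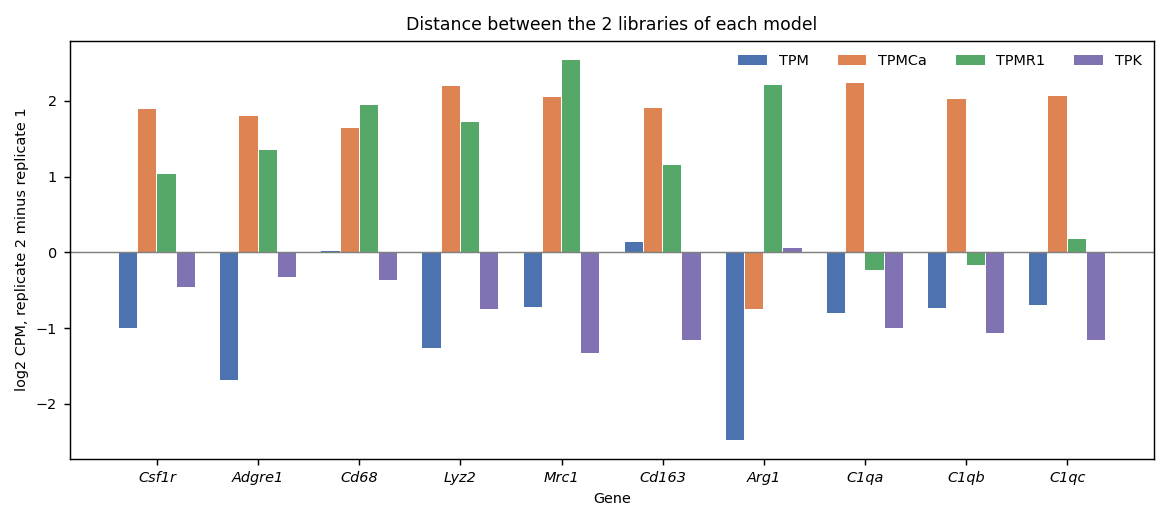
Bars give log2 CPM of replicate 2 minus replicate 1 for each gene on the x axis and each model by color. TPMCa bars are between 1.65 and 2.23 for 9 genes and below 0 for Arg1, and the TPMR1 bars are high for Mrc1 at 2.54 and near 0 for the 3 C1q genes.

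Other leukocyte genes and fibroblast markers differed between these libraries too. The 8 fibroblast markers, such as Col1a1 and Dcn, summed to 16736 CPM in TPMCa replicate 2 and 908 CPM in TPMR1 replicate 1. These were the ends of an 18.4-fold range, beside a 12.9-fold range of the 10 genes with the same ends. The other TPMCa library was at 8598 CPM and the other TPMR1 library at 6791 CPM. Partners in other models lay apart as well, with fibroblast sums of 10028 and 2471 CPM in TPK and 6473 and 2503 CPM in TPM. The summed level of 12 genes of leukocytes and myeloid cells in general (Tyrobp, Fcer1g, Laptm5, Ctss, Cd53, Ptprc, Aif1, Fcgr1, Fcgr3, Itgb2, Coro1a, Spi1) was 451 and 393 CPM in TPM, 1326 and 2241 CPM in TPMCa, 166 and 543 CPM in TPMR1 and 1291 and 1061 CPM in TPK, a 13.5-fold range. The 11 T, NK and B lymphocyte markers in the table summed to 182 CPM in TPMCa replicate 2 and to 1.59 to 31.0 CPM in the other 7 libraries. In that library the B cell genes Cd79a and Ms4a1 were at 57.3 and 27.9 CPM, and in TPMR1 replicate 1 Cd3e, Cd4, Ncr1 and Ms4a1 had 0 counts. The 10 neutrophil markers other than Ltf, which uterine epithelium also makes, summed to 2574 CPM in TPMCa replicate 1, 316 CPM in TPMCa replicate 2, 17.3 CPM in TPMR1 replicate 1 and 519 to 899 CPM in the other 5 libraries. The 10 dendritic cell markers summed to 116 CPM in TPMCa replicate 2 and 8.17 to 45.6 CPM elsewhere. The part of these cells in the results on the 10 genes was not tested.

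Set against the 12 leukocyte and myeloid genes of the same library, Csf1r, Adgre1 and Cd68 varied less than their levels did. Csf1r was 7.08 to 16.5% and Adgre1 2.46 to 6.89% of the summed CPM of those genes, a 2.33-fold and a 2.80-fold range. Cd68 was 6.59 to 15.5%, lowest in the 2 TPK libraries. Mrc1 was 4.14 and 2.89% in TPM, 4.25 and 10.5% in TPMCa, 6.94 and 12.3% in TPMR1 and 6.98 and 3.4% in TPK, so that both TPM libraries lay below both TPMCa and both TPMR1 libraries. C1qa was 47.8% in TPMR1 replicate 1 and 9.60% in TPMCa replicate 1, the ends of its range. Arg1 was 252 and 52.3% in TPM, 21.6 and 7.59% in TPMCa, 26.1 and 36.9% in TPMR1 and 83.7 and 105.5% in TPK, so that the 4 libraries of TPM and TPK all lay above the 4 libraries of TPMCa and TPMR1. Its range was 33.2-fold on this scale and 26.3-fold in its level. The summed epithelial markers divided the libraries in the same way, at 2941 to 5498 CPM in TPM and TPK and 6.47 to 73.3 CPM in TPMCa and TPMR1. Their part in this difference of Arg1 was not tested, and the share of all genes with this division was not computed.

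Ratios between pairs of the genes were also compared. Adgre1 per Csf1r stayed within 0.258 to 0.459 over the 8 libraries and Cd163 per Csf1r within 0.0654 to 0.203. Mrc1 per Csf1r ranged from 0.25 in TPM replicate 1 to 1.28 in TPMR1 replicate 2. Arg1 per Csf1r ranged 31.3-fold, from 0.488 in TPMCa replicate 2 to 15.3 in TPM replicate 1. It was 5.48 or more in all 4 TPM and TPK libraries and 3.83 or less in all 4 TPMCa and TPMR1 libraries. The epithelial markers divided the libraries in the same way, and their part in this ratio was not tested. Arg1 per Nos2, the pair that divides M2 from M1 macrophages in culture, ranged from 2.28 in TPMCa replicate 1 to 129.5 in TPK replicate 1. Nos2 itself was at 28.7 and 48.8 CPM in TPM, 126 and 45.6 CPM in TPMCa, 4.65 and 36.0 CPM in TPMR1 and 8.34 and 39.2 CPM in TPK. Both TPMCa libraries lay above both TPMR1 and both TPK libraries for Nos2, and the other pairs of models overlapped.

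**Figure D4:**
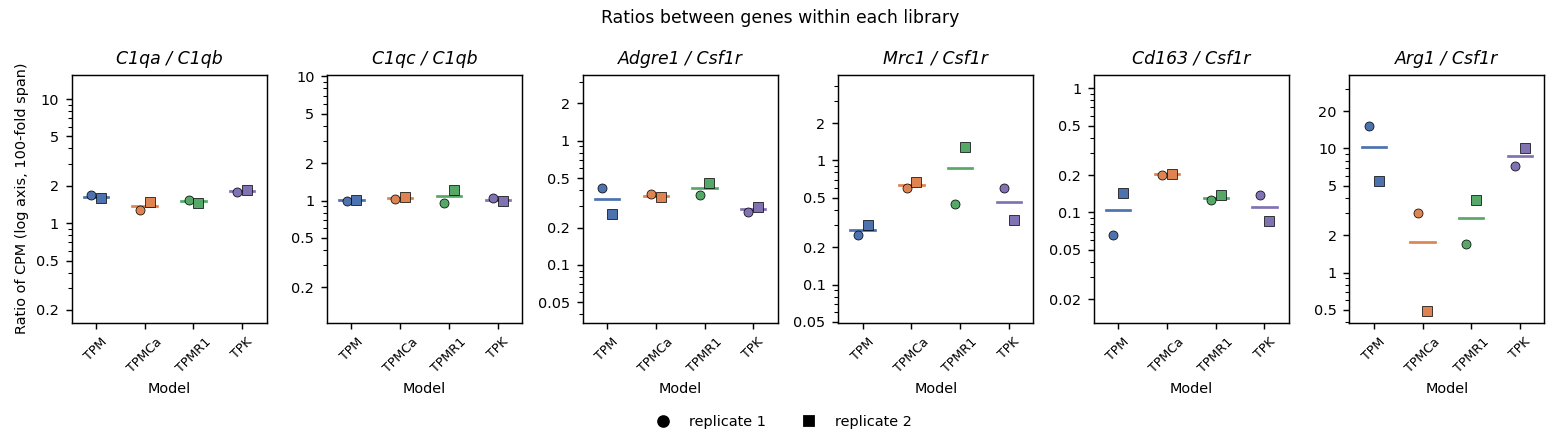
Each panel plots the ratio of the CPM of 2 genes within a library against the model, on log y axes that all span 100-fold, with a circle for replicate 1, a square for replicate 2 and a line for their mean. C1qa and C1qc per C1qb stay nearly level, while Arg1 per Csf1r falls from 5.48 to 15.3 in TPM to 0.488 to 3.04 in TPMCa.

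Correlations of log2 CPM over the 8 libraries are given as a description, with the libraries of each model and the level of all leukocyte genes shared between the points. Among the 9 genes without Arg1, Pearson's r lay between 0.72 and 0.996 with a median of 0.90, and the median was 0.81 without TPMCa replicate 2. Between Arg1 and those 9 genes the median r was 0.28, and 0.62 without TPMCa replicate 2. Among 12813 genes with a mean log2 CPM of at least 1, the gene most like Csf1r was Clec12a with r of 0.988, a C-type lectin of myeloid cells, and the gene most like Adgre1 was C3ar1 with r of 0.991, the receptor for complement C3a. Cd68 was most like Pik3cd, a leukocyte PI3 kinase subunit, with r of 0.988, and Mrc1 most like Rab3il1 with r of 0.978 and the endocytic adaptor Dab2 with r of 0.976. Lyz2 was most like Cyp4v3 with r of 0.985 and Cd163 most like Wdfy4 with r of 0.992. For C1qa and C1qc the gene most like each was C1qb, with r of 0.991 and 0.996, and the mean profile of the 3 C1q genes was most like Clec10a with r of 0.970 and Tbxas1 with r of 0.969. Arg1 was most like Cda with r of 0.988, S100a10 with 0.982 and Pmaip1 with 0.973, none of which was among the genes most like any other of the 10.

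Genes of arginine and polyamine metabolism surround Arg1 in its pathway, and of 12 tested several passed where Arg1 did not. In TPK against the mean of TPMCa and TPMR1, 1 rose and 4 fell by edgeR, beside 14.4% of all genes, of which 1643 were higher and 644 lower. Sat1, which acetylates spermidine and spermine for breakdown or export, rose by 1.56 ± 0.25 (SE, log2, adjusted p of 0.0118). Slc7a2, an arginine transporter of the cell membrane, had −2.82 ± 0.52 (adjusted p of 0.0171) and its relative Slc7a1 −1.38 ± 0.35 (adjusted p of 0.0442). The spermidine synthase gene Srm had −1.69 ± 0.23 (adjusted p of 0.00646) and the spermine synthase gene Sms −1.15 ± 0.30 (adjusted p of 0.0469). In TPM against the same mean Sat1 rose by 1.23 ± 0.26 (adjusted p of 0.0323). There Slc7a2 and Srm were lower, by −3.03 ± 0.52 and −1.28 ± 0.22 (adjusted p of 0.0172 and 0.0184), beside 8.89% of all genes called.

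Slc7a2 was at 26.7 and 19.4 CPM in TPM, 252 and 137.6 CPM in TPMCa, 97.8 and 265 CPM in TPMR1 and 24.9 and 28.2 CPM in TPK. Srm was at 129.7 and 140.4 CPM in TPM, 364 and 288 CPM in TPMCa, 317 and 337 CPM in TPMR1 and 110.8 and 92.5 CPM in TPK. Sat1 was at 434 and 349 CPM in TPM, 227 and 194 CPM in TPMCa, 108 and 154 CPM in TPMR1 and 418 and 565 CPM in TPK. For all 3 genes the 4 libraries of TPM and TPK did not overlap the 4 libraries of TPMCa and TPMR1. The 3 were named because they passed in these comparisons, so this division adds no separate evidence. The share of all genes with it was not computed. Slc7a2 and Srm also passed as higher in TPMCa against TPM (adjusted p of 0.0379 and 0.0465) and in TPMR1 against TPM (0.0323 and 0.0361), and Sat1 as lower in TPMR1 against TPM (0.0382). All 6 epithelial markers were higher in TPM and in TPK than in that mean at an adjusted p under 0.05, beside these differences, and their part in them was not tested. Arg2, the mitochondrial arginase, was at 0.736 to 54.9 CPM, with the ends of its range in TPMR1 replicate 1 and TPMCa replicate 1, and Ass1, which makes the precursor of arginine, had at most 2 counts in a library.

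**Figure D5:**
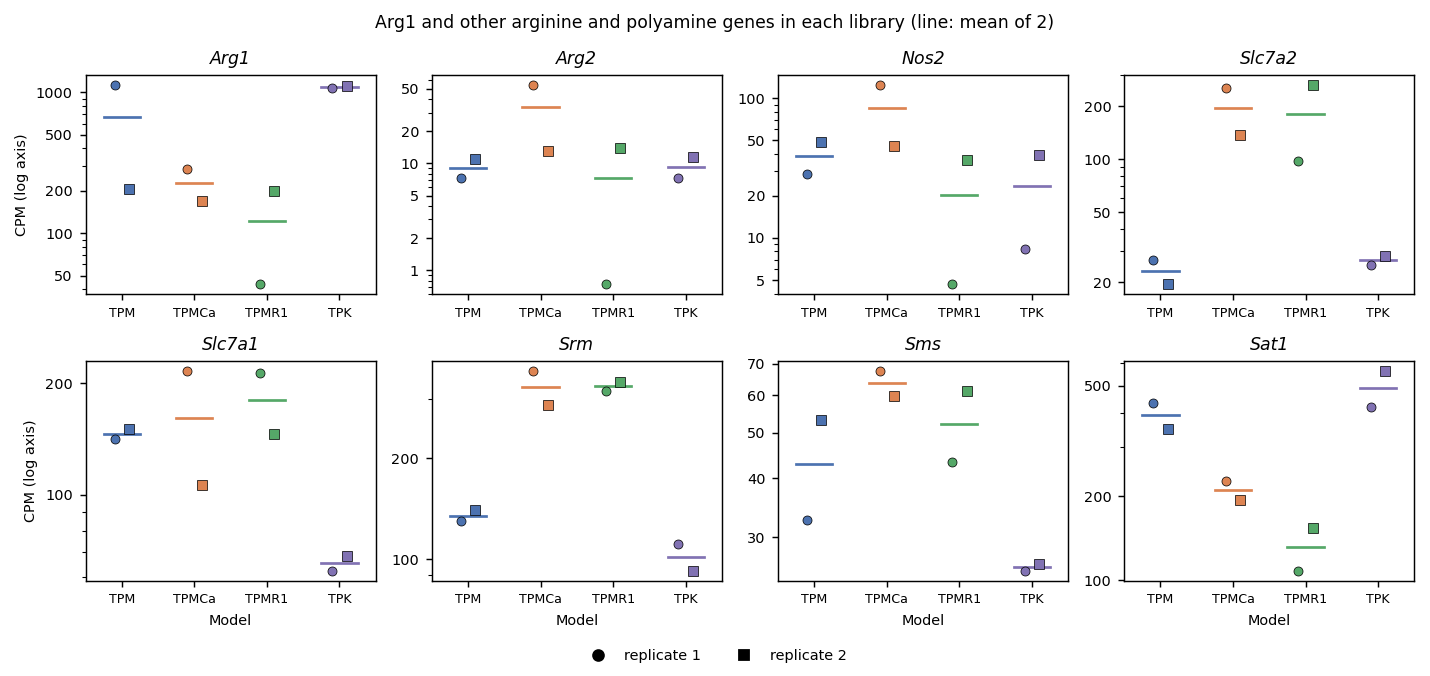
Each panel plots one gene of arginine or polyamine metabolism against the model, with CPM on a log y axis, a circle for replicate 1, a square for replicate 2 and a line for their mean. Slc7a2 and Srm are higher, and Sat1 lower, in all 4 TPMCa and TPMR1 libraries than in all 4 TPM and TPK libraries, whereas the 2 Arg1 values of TPM, 1137 and 205 CPM, span most of its range.

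Markers of classical activation showed few differences that passed. Of 16 M1 genes tested, Cd80, a costimulatory ligand for T cells, and Cxcl10, an interferon-induced chemokine, rose in TPK against the mean of TPMCa and TPMR1 by 3.37 ± 0.82 and 2.01 ± 0.42 (SE, log2, adjusted p of 0.04 and 0.0254), and Slc7a2 fell as given above. These 3 calls among 16 genes stand beside 14.4% of all genes called in that comparison. Cd80 was at 18.1 and 15.2 CPM in TPK and at 0.0774 to 4.90 CPM in the other 6 libraries. In the remaining comparisons no M1 gene other than Slc7a2 passed. Il1b, the gene of an inflammatory cytokine, ranged from 0.155 CPM in TPMR1 replicate 1 to 377 CPM in TPMCa replicate 1. Of 15 M2 genes tested, which include Mrc1, Cd163 and Arg1, 0 passed in any of the 6 pairwise or mean comparisons by edgeR. At most 5 had an unadjusted p under 0.05, in TPK against the mean, near the 32% of all genes, and in TPMCa against TPM, beside 22.1%. At most 5 were called in DESeq2, in TPMCa against TPM (16.1% of all genes) and in TPMR1 against TPMCa (5.03%). Among the M2 genes the receptor gene Il4ra, through which IL-4 and IL-13 signal, was at 282 and 287 CPM in TPK. It was at 25.7 to 144 CPM in the other 6 libraries.

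Among 22 tissue macrophage genes tested, Mertk was the only one that passed in these 6 comparisons by edgeR. Where it passed, 14.4% of all genes did. This receptor for dying cells was lower in TPK than in the mean of TPMCa and TPMR1, by −1.93 ± 0.47 (SE, log2, adjusted p of 0.0409), with 6.34 and 6.86 CPM in TPK, 10.5 and 4.12 CPM in TPM, 29.6 and 41.7 CPM in TPMCa and 18.2 and 17.5 CPM in TPMR1. In TPMCa against TPM all 22 had estimates above 0 with a median of 2.16, beside −0.01 for all genes tested, and 9 had an unadjusted p under 0.05, beside 22.1% of all genes. In TPMR1 against TPMCa all 22 had estimates below 0 with a median of −2.18. Apoe, the lipid carrier, was the highest of the list at 556 to 2881 CPM, and Stab1, Msr1 and Folr2, receptors of resident and scavenging macrophages, each had their maximum in TPMCa replicate 2, at 536, 259 and 81.9 CPM.

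The ligands of CSF1R did not pass in any comparison by edgeR. Csf1 was at 42.8 and 63.0 CPM in TPM, 51.2 and 84.2 CPM in TPMCa, 44.5 and 78.2 CPM in TPMR1 and 69.7 and 93.9 CPM in TPK, and Il34 lay between 4.67 and 12.5 CPM. Of 10 genes of myeloid growth factors and their receptors tested, 1 passed in each of 4 comparisons. These were TPM and TPK against the mean of TPMCa and TPMR1, in which 8.89% and 14.4% of all genes passed. The others were TPMCa and TPMR1 against TPM, in which 3.48% and 5.58% of all genes passed. The count of 1 in 10 is near the shares in the comparisons with the mean, and the gene that passed was the same each time. It was Cx3cl1, the membrane-bound ligand of CX3CR1, which epithelial cells can make. The 6 epithelial markers divide the libraries in the same way, and their part in this difference was not tested. Cx3cl1 was at 43.0 and 49.2 CPM in TPM, 9.88 and 9.29 CPM in TPMCa, 9.53 and 11.2 CPM in TPMR1 and 52.5 and 73.8 CPM in TPK. Its log2 fold change was 2.21 ± 0.24 (SE) in TPM and 2.66 ± 0.24 in TPK against the mean of TPMCa and TPMR1, with adjusted p values of 0.00389 and 0.0019 in edgeR. Its receptor gene Cx3cr1 was at 102 CPM in TPMCa replicate 2 and 1.01 to 20.5 CPM elsewhere, with no such division between the models.

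Of 9 transcription regulators of macrophages tested, Cebpa rose in TPM and in TPK against the mean of TPMCa and TPMR1, by 1.44 ± 0.33 and 1.43 ± 0.33 (SE, log2, adjusted p of 0.0464 and 0.0358), and Runx1 rose in TPK by 3.27 ± 0.74 (adjusted p of 0.0327). The share of all genes that passed was 8.89% in TPM and 14.4% in TPK against that mean. Cebpa was also lower in TPMR1 than in TPM, by −2.03 ± 0.42 (adjusted p of 0.0427), beside 5.58% of all genes called. Both are also expressed in epithelial cells. Of 16 complement genes tested, 1 passed in TPK against that mean, beside 14.4% of all genes, and none passed elsewhere. It was Cfb, an activator of the alternative pathway that is not a chain of C1q, which rose by 3.47 ± 0.86 (adjusted p of 0.0425). Of 16 lysosome genes and 17 C-type lectin and scavenger receptors tested, 0 passed in any of the 6 comparisons by edgeR, and in TPMCa against TPM 8 and 5 of them had an unadjusted p under 0.05, all higher in TPMCa, and DESeq2 called 6 and 4. These counts stand beside 22.1% and 16.1% of all genes, and those of the C-type lectin and scavenger receptors are near these shares. The 12 leukocyte and myeloid genes held 0 calls by edgeR in those 6 comparisons. In TPMCa against TPM 9 of them had an unadjusted p under 0.05 and DESeq2 called 8. Laptm5 and Ctss passed the edgeR test of any difference among the 4 models (7.32% of all genes), with adjusted p values of 0.0485 and 0.0365.

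Among markers of monocytes, osteoclasts, mast cells and lymphocytes a few genes passed in these comparisons. The 6 epithelial markers were also higher in TPM and TPK in them. Of all genes, 8.89% and 14.4% passed in TPM and TPK against the mean of TPMCa and TPMR1. In TPMCa and TPMR1 against TPM the shares were 3.48% and 5.58%. Of 9 monocyte markers Plac8 rose in TPM and in TPK against the mean of TPMCa and TPMR1, by 1.70 ± 0.24 and 2.56 ± 0.24 (SE, log2, adjusted p of 0.00867 and 0.00212). It was lower in TPMCa and in TPMR1 than in TPM, by −1.64 ± 0.30 and −1.77 ± 0.30 (adjusted p of 0.0379 and 0.0265). Nr4a1, a nuclear receptor of patrolling monocytes that many other cells induce, was at 26.5 and 25.5 CPM in TPM, 776 and 523 CPM in TPMCa, 102.5 and 971 CPM in TPMR1 and 44.1 and 25.4 CPM in TPK. It was lower in TPM and TPK than in that mean, with adjusted p values of 0.0387 and 0.0361 in edgeR. Of 6 osteoclast markers Acp5, a phosphatase that macrophages also make, rose in TPM and TPK by 2.06 ± 0.33 and 3.10 ± 0.33 (adjusted p of 0.0131 and 0.0030), and it was lower in TPMR1 than in TPM by −3.05 ± 0.43 (adjusted p of 0.0159). In TPK against the mean Kit, a receptor of mast cells, was lower by −1.84 ± 0.40 (adjusted p of 0.0296). Of the 6 mast cell and eosinophil markers tested, however, 4 had estimates above 0 there. In the same comparison Gzma, a granzyme of NK and T cells, rose by 4.89 ± 0.94 (adjusted p of 0.0195). Of the 9 lymphocyte markers tested, 4 had estimates above 0 and 5 below 0, so neither gene stands for its list. The part of epithelial cells in these differences was not tested.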

How the data were processed

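RNA of 4 EC mouse models, 2 libraries each, was analyzed from the gene counts deposited by the authors, who aligned 150-bp paired-end reads to mm10 with STAR, per the methods and the submitters' processing notes. The counter and its annotation are not given in the sources used here. The labels give TPMPik3ca and TPMPik3r1 for TPMCa and TPMR1, and the columns headed TPMS were matched to TPM. A second table of normalized values was not used, and some engineered genes of the models are left out here.

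Counts were normalized by TMM and tested with the quasi-likelihood F-test of edgeR 4.0.16 in R 4.3.3, in one fit of all 8 libraries with a term for the model, after filterByExpr had left 15875 of 24419 genes. The common dispersion was 0.269. Adjusted p is that of Benjamini and Hochberg over all genes tested, with a threshold of 0.05. DESeq2 1.42.0 was run as an alternative. The code was tested on simulated data. No exact permutation test was run, since its smallest two-sided p is 0.333 for 2 libraries against 2 and 0.0667 for 2 against 4. The study gives 2 mice per model for these comparisons, and the labels do not name the animal of each library.

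The 10 genes and the 20 lists of companion genes were chosen with earlier results of these data known. Genes to name in a list were those with an adjusted p under 0.05 in a comparison, up to 6 per comparison, and the 4 with the highest mean CPM. Not all of these are given, and the choice among them was made after their values were seen. Other genes of the lists with values (Spi1, Nos2, Arg2, Ass1, Cx3cr1, Il34, Msr1, Folr2, Cpa3 and Retnla) were chosen after their values were seen. Exon lengths are from GENCODE M21 and promoter windows from RefSeq, both on GRCm38. Normalization, filters, a replicate block, fits of only the models compared and leaving out each library were tried as alternatives, and leaving out TPMCa replicate 2 and TPMR1 replicate 1 together was added after seeing the data.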

Additional observations from a re-analysis of the deposited data

How the results depend on the processing

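The number of the 10 genes called by edgeR was 0 in all 7 comparisons. It was 0 under DESeq2 size factors, library size alone, the CPM filter, the replicate block, and without TPMCa replicate 2 and TPMR1 replicate 1 together. DESeq2 called 9 in the test of any difference, 1 in TPM and 1 in TPK against the mean of TPMCa and TPMR1, 7 in TPMCa against TPM, 1 in TPMR1 against TPM, 0 in TPK against TPM and 6 in TPMR1 against TPMCa, and the cause was not tested. In TPK against the mean of TPMCa and TPMR1, 1 gene (Arg1) was called without a filter and in the fit of only the models compared. Leaving out each library gave 0 to 1 calls in the test of any difference (Cd68 without TPMR1 replicate 2), in TPK against the mean (Arg1 without TPMR1 replicate 2), in TPMCa against TPM (Cd163 without TPMR1 replicate 1) and in TPMR1 against TPMCa (Cd68 without TPMR1 replicate 2), and 0 in the others.

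Over all genes DESeq2 called 4783 against 1162 by edgeR in the test of any difference, 3091 against 1411 and 4470 against 2287 in TPM and TPK against the mean, 2575 against 553 in TPMCa against TPM, 2864 against 886 in TPMR1 against TPM, 245 against 0 in TPK against TPM and 806 against 0 in TPMR1 against TPMCa. The fit of only the models compared called 899 and 1451 in the comparisons with the mean, 1264 in TPMCa against TPM and 53 in TPMR1 against TPM, with fewer libraries fitted. In TPMCa against TPM 1074 genes were called without both outlying libraries. Leaving out each library in turn gave 169 to 3193 calls in the test of any difference, 455 to 2061 in TPM and 541 to 3108 in TPK against the mean, 38 to 1643 in TPMCa against TPM, 164 to 2059 in TPMR1 against TPM, 0 in TPK against TPM and 0 to 1379 in TPMR1 against TPMCa, the last without TPMR1 replicate 2.

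Libraries that share a replicate number did not deviate together, with correlations of −0.0682 to −0.0091 between the replicate differences of 2 models. This cannot show whether the numbers mark a shared animal or batch. With a replicate block 631 genes were called in the test of any difference, 362 in TPMCa against TPM and 557 in TPMR1 against TPM, and no call of the 10 genes changed. Under this replicate block the estimates of 4 genes changed sign, Mrc1 to 0.10 and Cd163 to 0.21 in TPK against the mean and Cd68 to −0.14 and Cd163 to −0.07 in TPMR1 against TPM.

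Estimates that were not called could change sign. Adgre1 in TPK against the mean was −0.03 in DESeq2, with DESeq2 size factors, with the CPM filter and in the fit of only the models compared, and −0.16 with library size alone. Without both outlying libraries Mrc1 and Cd163 were 0.04 and 0.37 in TPK against the mean, Adgre1 0.24 in TPMR1 against TPM and Mrc1 0.25 in TPMR1 against TPMCa. Leaving out each library moved Lyz2 from −1.28 to 0.25 in TPM against the mean. In TPK against the mean it moved Adgre1 from −0.31 to 0.59, Cd68 from −0.77 to 0.20, Mrc1 from −1.08 to 0.63, Cd163 from −0.73 to 0.61 and C1qc from −0.07 to 1.32. Arg1 moved from −2.32 to 0.16 in TPMCa against TPM and from −0.05 to 2.41 in TPK against TPM. In TPMR1 against TPM the ranges were −1.12 to 0.08 for Csf1r, −1.11 to 0.82 for Adgre1, −1.17 to 0.78 for Cd68, −0.38 to 2.16 for Mrc1, −0.67 to 0.49 for Cd163, −0.50 to 0.33 for C1qa, −0.34 to 0.41 for C1qb and −0.22 to 0.50 for C1qc.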

Other observations

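Endothelial markers, which are no part of the 10 genes, were measured as a further component of the tumors. The 8 markers summed to 137 and 123 CPM in TPM, 474 and 566 CPM in TPMCa, 164 and 634 CPM in TPMR1 and 185 and 62.1 CPM in TPK. By edgeR 0 of them passed in any of the 6 comparisons. At most 6 had an unadjusted p under 0.05, in TPK against the mean and in TPMCa against TPM, beside 32% and 22.1% of all genes. DESeq2 called at most 5, in TPK against the mean, beside 26.6% of all genes. The 10 mast cell and eosinophil markers summed to 141 CPM in TPM replicate 1 and 117 CPM in TPM replicate 2. Within this list Cpa3, Mcpt4 and Tpsb2, proteases of mast cell granules, were at 24.7, 31.0 and 30.0 CPM in replicate 1 and at 0.229, 0.114 and 0.343 CPM in replicate 2, whereas Hdc, the enzyme of histamine synthesis, was at 31.0 and 96.5 CPM. Arg1 was at 1137 and 205 CPM in these 2 libraries. The summed squamous markers were at 20783 and 5108 CPM there, the epithelial markers at 5498 and 2941 CPM and the fibroblast markers at 6473 and 2503 CPM. The part of any of these cells in the difference of Arg1 was not tested. Retnla, an M2 gene of the mouse, was at 37.6 CPM in TPK replicate 1, 11.6 CPM in TPMCa replicate 2 and below 1 CPM in the other 6 libraries.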
